A study of Mus musculus with 2 samples.

Results

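The genes described here are the hypoxia-inducible factors and their oxygen-sensing regulators in mouse adrenal gland. The 10 members were taken by name as a fixed list, out of 55536 annotated genes in the deposited tables, and all 10 were found. They are the alpha subunits Hif1a, Epas1 and Hif3a, the beta subunits Arnt and Arnt2, the prolyl hydroxylases Egln1, Egln2 and Egln3, the asparaginyl hydroxylase Hif1an and the ubiquitin ligase subunit Vhl. None was chosen for its measured level, although earlier results of these data were known when the list was set.

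Total RNA was sequenced from adrenal gland tissue of male mice at 10 days of age, 1 library for replicate 2 and 1 for replicate 1. The mice were B6Cast F1 animals (strain B6CASTF1/J), the first-generation cross of the inbred strains C57BL/6J and CAST/EiJ, and carried no labelled treatment or allele. The input was 300 ng of RNA per library, to which ERCC spike-ins, synthetic RNAs used as standards, had been added. The labels name no sorting, so the cell types of the tissue were measured together, and fewer cells of a type and less RNA per cell cannot be told apart. The labels number the animals differently in one field and alike in another, and give both the same donor identifier. With a single group of 2 libraries, no condition was compared and no p-value is given. SDs are over n = 2 libraries and measure only the spread between them, which may be technical.

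The pathway turns oxygen supply into transcription. HIF alpha subunits are made constantly, and in oxygen the EGLN enzymes, which need oxygen, iron and 2-oxoglutarate, hydroxylate them on prolines that the VHL ubiquitin ligase then recognises. When oxygen is scarce, alpha subunits escape degradation, pair with ARNT or ARNT2 and bind hypoxia response elements, while HIF1AN sets a further brake by hydroxylating an asparagine that coactivators need free. In the adrenal gland the pathway is known from the sympathoadrenal lineage, where EPAS1 is active early, and from human phaeochromocytoma, a chromaffin cell tumour in which EPAS1, VHL, EGLN1 and succinate dehydrogenase genes can be mutated. RNA levels, given here, do not show how much alpha subunit protein was present.

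The deposited gene tables held 38641442 expected counts on annotated genes in replicate 2 and 36652695 in replicate 1. Markers of the labelled tissue were present in both libraries. All 9 steroid-producing cortex markers and all 9 chromaffin markers were above 1 TPM, a level per transcript length, with summed levels of 6109 TPM (replicate 2) and 6997 TPM (replicate 1) for cortex, and of 1280 and 1534 TPM for chromaffin cells. Transcripts of other tissues were present too. The 6 adipocyte markers summed to 2608 TPM in replicate 2 and 2584 TPM in replicate 1, and the 7 brown adipocyte markers to 2175 and 2599 TPM. The 8 liver markers summed to 12257 TPM in replicate 2 and 3885 TPM in replicate 1, and the 7 skeletal muscle markers to 836 and 310 TPM. The 7 bone and cartilage markers summed to 54.8 TPM in replicate 2 and to 1.44 TPM in replicate 1. Of 6 kidney tubule markers none reached 1 TPM in both libraries, and Umod, Slc12a1 and Slc34a1 had 0 expected counts in both gene tables. The part of these other tissues in the values below was not tested.

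All 10 members were transcribed at 1 TPM or more in both libraries, against 56.7% of 22015 nuclear protein-coding genes. TPM is the share of a library's transcripts that come from a gene, after reads are divided by transcript length, so it can be compared between genes. The median member had 13.6 TPM in replicate 2 and 15.5 TPM in replicate 1 (14.6 ± 1.34, SD, n = 2), and the median of the 12487 protein-coding genes above 1 TPM was 9.69 TPM. The order by mean TPM was Epas1, Egln2, Egln1, Hif1a, Arnt, Arnt2, Hif1an, Vhl, Hif3a and Egln3. The 2 values of Arnt2 overlapped those of Hif1an, and the values of Hif3a overlapped those of Egln3. The other neighbours did not overlap, but several gaps were narrow. For Hif1a above Arnt, the lower Hif1a library had 18.8 TPM and the higher Arnt library 18.0 TPM. In the second deposited transcript table, made by another quantification of the same reads, Hif1a stood at 0.983 times Arnt in replicate 2 and 1.06 times in replicate 1. There Hif1an stood at 0.934 and 0.793 times Vhl, so the order of that pair turned round.

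**Figure D1:**
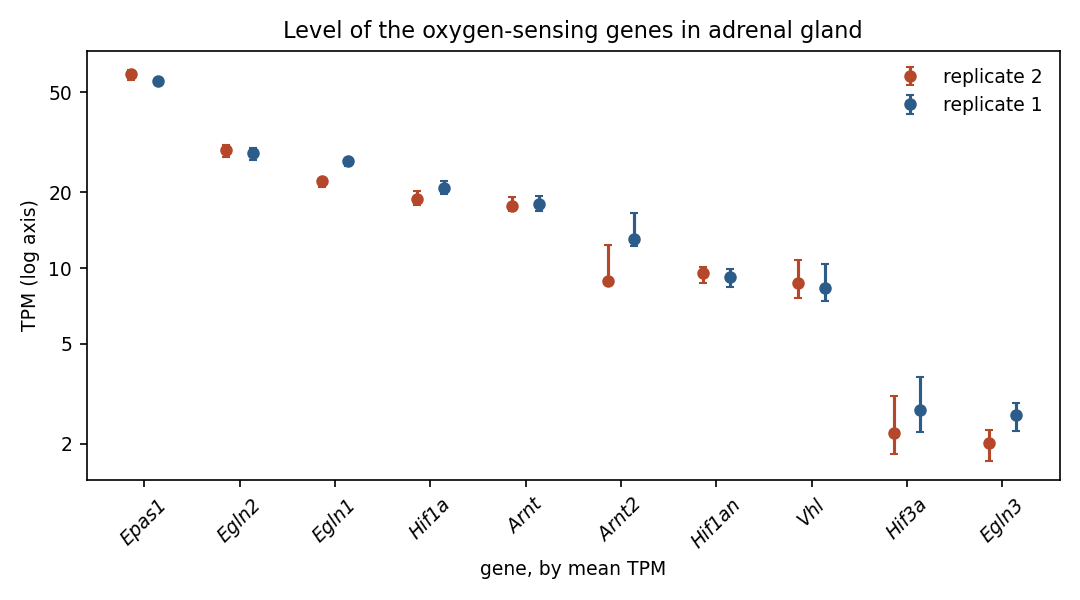
Level of each member in TPM (log axis) from the gene tables, with replicate 2 left of replicate 1 and bars for the interval that the deposited table gives for read assignment within 1 library. Epas1 lies highest at 59.1 and 55.5 TPM, and Hif3a and Egln3 lie lowest, at 2.02 to 2.73 TPM.

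Among the alpha subunits, Epas1 stood far above the others. Epas1 (ENSMUSG00000024140.10; mm10 chr17:86753700-86833410, plus strand) encodes HIF-2 alpha, which is known from endothelium and catecholamine-producing cells. It had 59.1 TPM in replicate 2 and 55.5 TPM in replicate 1 (57.3 ± 2.60, SD, n = 2), from 11400 and 10899 expected counts, and ranked at the 92.0th percentile of detected protein-coding genes. Hif1a (ENSMUSG00000021109.13; chr12:73901375-73947530, plus strand), the alpha subunit present in most cell types, had 18.8 TPM in replicate 2 and 20.9 TPM in replicate 1 (19.9 ± 1.45). Epas1 therefore exceeded Hif1a 2.88-fold, a log2 ratio of 1.64 in replicate 2 and 1.40 in replicate 1, and the same mean ratio of 2.88 was found in the second table. Hif3a (ENSMUSG00000004328.15; chr7:17031507-17062427, minus strand), whose short forms are known to antagonise the other alpha subunits, had 2.21 TPM in replicate 2 and 2.73 TPM in replicate 1 (2.47 ± 0.368), at the 12.4th percentile. Epas1 exceeded Hif3a 22.4-fold in the first table and 16.4-fold in the second. Of the summed alpha subunit level, 80.2 TPM in replicate 2 and 79.1 TPM in replicate 1, Epas1 made up 73.7% and 70.1%, Hif1a 23.5% and 26.4%, and Hif3a 2.76% and 3.45%.

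The sites through which oxygen acts on the alpha subunits lie in the transcripts that were most abundant. The stretches below are coding sequence around the hydroxylated prolines, taken from GENCODE M21 transcripts on mm10, and are shown because the shares that follow turn on them. A search of the translated transcripts for leucine, any residues at the next 2 positions, leucine, alanine and proline found 2 sites in Epas1, 2 in Hif1a and 1 in Hif3a. Each line runs 5′ to 3′ over 60 bases, and the capitals mark the proline codon. The first Epas1 site lies in exon 9 (chr17:86824549-86824608) and the second in exon 12 (chr17:86827492-86827551). The first Hif1a site lies in exon 9 (chr12:73939668-73939727). The second stretch spans 2 exons, with its proline codon in exon 12 (chr12:73941847-73942014). The Hif3a site also spans 2 exons (chr7:17041184-17042591, minus strand).
Epas1-201, codon 405: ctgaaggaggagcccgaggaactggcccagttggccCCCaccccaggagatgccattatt
Hif1a-201, codon 402: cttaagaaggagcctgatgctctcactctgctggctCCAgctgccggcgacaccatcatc
Epas1-201, codon 530: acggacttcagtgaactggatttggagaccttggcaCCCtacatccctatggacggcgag
Hif1a-201, codon 577: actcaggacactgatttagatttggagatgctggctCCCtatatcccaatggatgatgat
Hif3a-202, codon 489: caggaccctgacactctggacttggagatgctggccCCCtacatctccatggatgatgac

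Base by base, without gaps, the first sites of Epas1 and Hif1a shared 38 of 60 bases (63.3%) and the second sites 41 of 60 (68.3%). The single Hif3a stretch shared 39 of 60 with the second Hif1a site and 38 of 60 with the second Epas1 site, but only 20 and 24 of 60 with the first sites of Hif1a and Epas1. Transcripts with at least 1 of these sites held 95.7% of Epas1 TPM in replicate 2 and 99.1% in replicate 1, and 92.2% and 92.7% of Hif1a TPM. For Hif3a the share was 76.9% in replicate 2 and 67.5% in replicate 1 (72.2 ± 6.65%, SD, n = 2). In the second table it was 63.4% and 58.0%. The rest of Hif3a TPM lay in the short annotated transcripts Hif3a-203 and Hif3a-204, of 371 and 461 bases, in which no site was found. It rests on very few reads divided by short lengths. Hif3a-203 had 5 expected counts in replicate 2 and 7 in replicate 1, and Hif3a-204 had 0 and 3. In the second table they had 2 and 3 counts, and 4 and 4.

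Hif1a was read mainly from Hif1a-201, which held 76.2% of its TPM in replicate 2 and 74.0% in replicate 1. Hif1a-202, which starts 6529 bases upstream, held 16.0% and 18.7%, and 13.0% and 10.2% in the second table. Both carry the same stretches, numbered as codons 390 and 551 in Hif1a-202. The annotation also places the protein-coding gene Gm49321 over 9878 bases of Hif1a on the same strand, with 1.11 TPM in replicate 2 and 2.57 TPM in replicate 1, and how reads in that overlap were divided cannot be seen. Among the Hif3a transcripts, Hif3a-202 led with 59.7% and 55.5%, followed by Hif3a-203 with 23.1% and 24.1% and Hif3a-201 with 17.2% and 12.0%. Hif3a-204 was listed at 0 in replicate 2 and at 8.39% in replicate 1, but at 20.2% and 19.8% in the second table. With 344 expected counts in replicate 2 and 385 in replicate 1 for the whole of Hif3a, these shares rest on few reads.

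Both beta subunits were present, and Arnt was the higher. Arnt (ENSMUSG00000015522.18; chr3:95434388-95497240, plus strand), the common partner of HIF alpha subunits and of the dioxin receptor, had 17.7 TPM in replicate 2 and 18.0 TPM in replicate 1 (17.9 ± 0.191, SD, n = 2). Arnt2 (ENSMUSG00000015709.9; chr7:84246278-84410176, minus strand), best known from neurons, had 8.84 TPM in replicate 2 and 13.0 TPM in replicate 1 (10.9 ± 2.96). Arnt exceeded Arnt2 by a log2 TPM ratio of 1.00 in replicate 2 and 0.46 in replicate 1, so the direction was shared while the size was not. Arnt made up 66.7% of the summed beta subunit level in replicate 2 and 58.0% in replicate 1. The sum was 26.6 TPM in replicate 2 against 31.0 TPM in replicate 1, below the summed alpha subunit level in each library.

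Arnt2 was the member with the largest difference between the libraries, and its transcripts differed as well. The table assigned 1394 expected counts to Arnt2 in replicate 2 and 1854 in replicate 1. Arnt2-201 held 56.6% of its TPM in replicate 2 and 27.5% in replicate 1. Arnt2-207 held 7.24% in replicate 2, from 140 expected counts, and 31.0% in replicate 1, from 878. In the second table Arnt2-207 was again the lower in replicate 2, at 6.70% against 18.8%, from 133 and 574 counts, whereas Arnt2-201 had 1449 and 1441. Of the shorter transcripts, Arnt2-204 held 3.28% in replicate 2 and 15.1% in replicate 1 (12.6% and 18.7% in the second table), and Arnt2-205 held 17.0% and 8.06% (0% and 5.01%). Arnt2-207 shares 5883 of its 6047 bases with Arnt2-201, and its start site lies 37588 bases from that of Arnt2-201, so that few bases tell them apart. Arnt was split in both libraries between Arnt-202, with 42.5% in replicate 2 and 44.3% in replicate 1, and Arnt-203, with 38.9% and 30.3%. In the second table Arnt-203 stood at 46.4% and Arnt-202 at 37.9% in replicate 2, and at 37.8% and 38.6% in replicate 1, so their order was not settled.

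**Figure D2:**
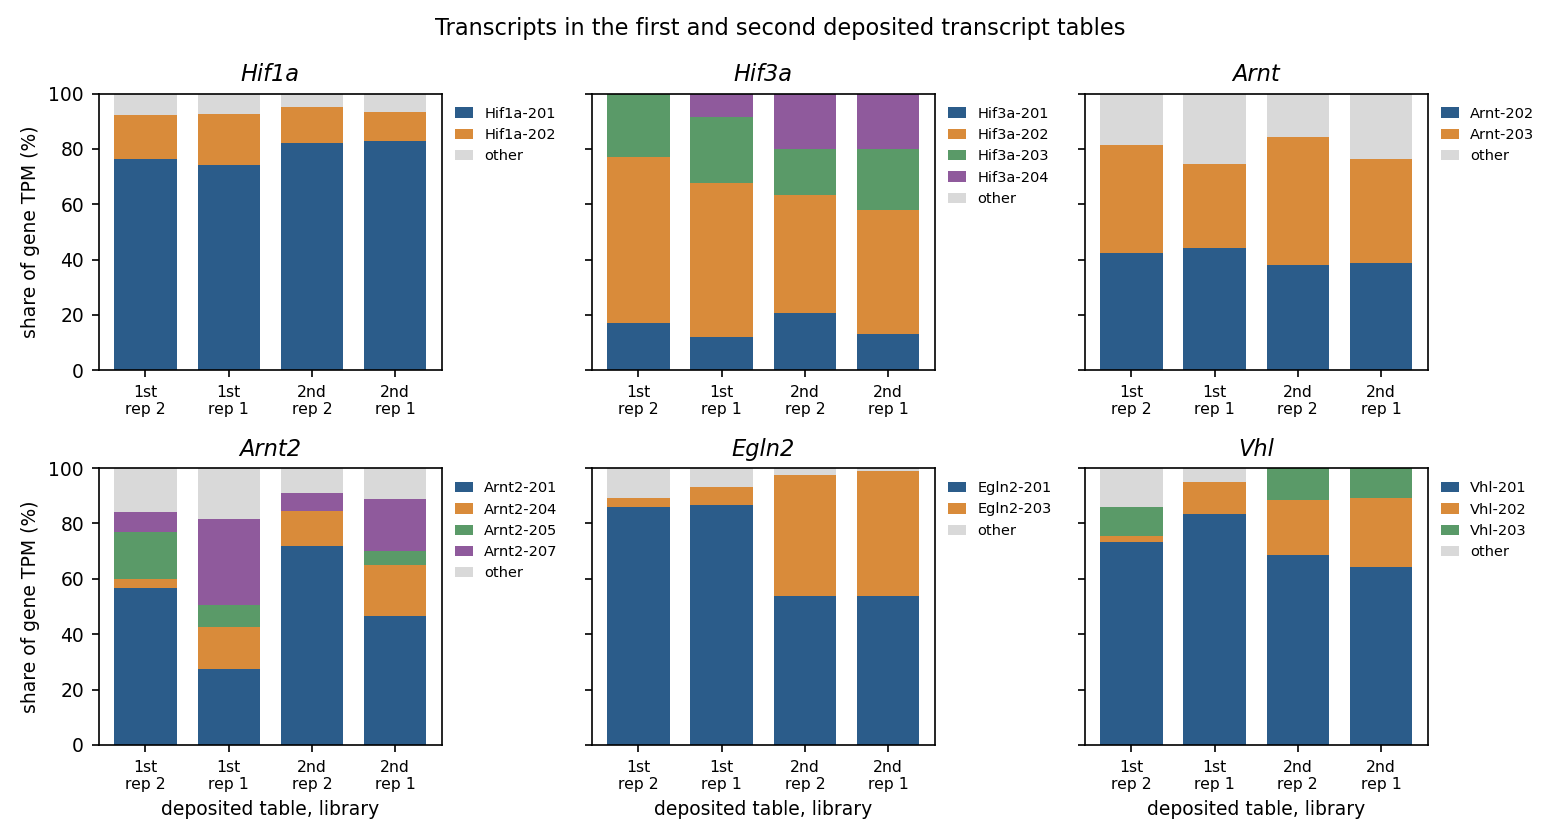
Share of each gene's TPM (%) by annotated transcript, for replicate 2 and replicate 1 in the first deposited transcript table and then in the second, with transcripts that average under 10% in both tables in grey. Egln2-203 takes 3.25% and 6.59% in the first table but 43.6% and 44.9% in the second, and Arnt2-207 takes less in replicate 2 than in replicate 1 in both.

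Of the prolyl hydroxylases, Egln2 and Egln1 were close and Egln3 was low. Egln2 (ENSMUSG00000058709.11; chr7:27158658-27166802, minus strand), which encodes PHD1, had 29.5 TPM in replicate 2 and 28.7 TPM in replicate 1 (29.1 ± 0.594, SD, n = 2). Egln1 (ENSMUSG00000031987.6; chr8:124908587-124949324, minus strand), which encodes PHD2, known as the main HIF prolyl hydroxylase in most normoxic cells, had 22.2 TPM in replicate 2 and 26.7 TPM in replicate 1 (24.5 ± 3.19). Egln2 exceeded Egln1 by a log2 ratio of 0.41 in replicate 2 and 0.10 in replicate 1, a mean of 0.26 ± 0.22. Egln3 (ENSMUSG00000035105.5; chr12:54178981-54203860, minus strand), which encodes PHD3, an enzyme known for induction by hypoxia and for a role in sympathoadrenal development in mice, had 2.02 TPM in replicate 2 and 2.60 TPM in replicate 1 (2.31 ± 0.410). Egln1 and Egln3 have 1 annotated transcript each. Egln3 lay at the 11.1th percentile, and Egln1 exceeded it 10.2-fold. Of their summed level, 53.7 TPM in replicate 2 against 58.0 TPM in replicate 1, Egln2 made up 54.9% and 49.4%, Egln1 41.3% and 46.1%, and Egln3 3.76% and 4.48%.

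The wider distance between Egln2 and Egln1 in the second table came mostly with 1 short transcript. In the second table Egln2 had 69.3 TPM in replicate 2 and 72.6 TPM in replicate 1, which is 2.44 times its level in the first table. Over 12491 protein-coding genes the median of that ratio was 1.55, and 2.98% of them lay above Egln2. The second table gave 30.2 and 32.6 TPM to Egln2-203, a processed transcript of 455 bases, against 0.960 and 1.89 TPM in the first table. The reads behind these levels were 129 and 126 counts in the second table and 13 and 25 in the first, and the effective length, by which counts are divided, was 142 and 140 bases in the second and 356 bases in the first. The full-length Egln2-201 received similar counts in both, 2003 and 1921 in the second table and 1888 and 1827 in the first. Counting only protein-coding transcripts, a choice made after these values were seen, Egln2 exceeded Egln1 by a mean log2 ratio of 0.09 in the first table and 0.06 in the second. That count leaves out Egln2-203 and the other noncoding transcript, Egln2-204. Egln2-204 had 2.15 TPM in replicate 2 and 1.46 TPM in replicate 1 in the first table, more in replicate 2 than Egln2-203. In the second table it had 1.71 and 0.814 TPM.

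Hif1an and Vhl were of middling level. Hif1an (ENSMUSG00000036450.4; chr19:44562850-44576274, plus strand), which encodes the asparaginyl hydroxylase FIH, had 9.52 TPM in replicate 2 and 9.21 TPM in replicate 1 (9.37 ± 0.219, SD, n = 2), at the 49.0th percentile. Vhl (ENSMUSG00000033933.13; chr6:113623959-113631633, plus strand), the subunit that binds hydroxylated alpha subunits, had 8.74 TPM in replicate 2 and 8.35 TPM in replicate 1 (8.54 ± 0.276), at the 45.6th percentile. Its coding transcript Vhl-201 held 73.4% of that level in replicate 2 and 83.4% in replicate 1. The noncoding Vhl-202 held 1.95% and 11.6% in the first table and 19.6% and 24.9% in the second, and Vhl-203, also noncoding, 10.7% and 0% in the first and 11.6% and 10.8% in the second. These 2 short transcripts had few reads, divided by short effective lengths. Vhl-202 had 3 and 17 expected counts in the first table and 21 and 29 in the second. Vhl-203 had 11 and 0, and then 6 and 6. Vhl-201 had 641 and 687 in the first table and 707 and 727 in the second. Hif1an-201 held 88.4% and 90.6% of Hif1an TPM, and the retained-intron transcript Hif1an-202 held the other 11.6% and 9.45%. In the second table Hif1an-201 held 94.4% and 98.6%, and Vhl-201 held 68.7% and 64.2% of Vhl TPM. Each member of this pair thus had its level mostly in its coding form, but for both the share differed between the tables.

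Between the libraries the members differed little, and 2 of the 10, Arnt2 and Egln3, lay apart, both lower in replicate 2. A gene was counted as apart when its ratio of replicate 2 over replicate 1 was below 0.8 or above the inverse of 0.8, a log2 difference of 0.32. Ratios used expected counts scaled by the trimmed mean of M values (TMM), with exact 95% binomial intervals on the rounded counts. These cover counting error only, and not the division of reads between genes. The reads carry no molecular identifiers, so copies of 1 molecule cannot be told apart and the intervals may be too narrow. Arnt2 had a ratio of 0.753 (0.702 to 0.807) and Egln3 one of 0.788 (0.649 to 0.955). Of 13188 genes whose mean was 100 expected counts or more, 18.3% lay apart by this limit, 5.01% with the lower value in replicate 2 and 13.3% with the higher. A share of 2 in 10 is near the 18.3% for either direction, but both members were lower in replicate 2, where the background was 5.01%. With 10 members, such a share is coarse. No member lay more than 1.5-fold apart, against 8.47% of those genes, nor more than 2-fold, against 4.48%. In the second table Arnt2 lay at 0.766 and Egln3 at 0.855, inside the limit.

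The other ratios were small. Egln1 lay at 0.844 (0.803 to 0.887) and Hif1a at 0.910 (0.866 to 0.957), both with intervals below 1. Hif3a lay at 0.894 (0.771 to 1.04) and Vhl at 0.940 (0.844 to 1.05), with intervals that included 1. Epas1 lay at 1.05 (1.02 to 1.07), and Arnt at 1.05 (0.992 to 1.12), Egln2 at 1.05 (0.987 to 1.12) and Hif1an at 1.03 (0.964 to 1.10). Scaled by library total instead, these last 4 had log2 ratios between -0.04 and 0, and none of the 10 members was higher in replicate 2, while spike-in scaling left 3 higher. The median log2 ratio of the members was -0.11, with 4 higher and 6 lower in replicate 2 under TMM, against -0.01 for all 13188 genes, whose quartiles were -0.12 and 0.14 and of which 51.0% were lower in replicate 2. Beside the lower members, all 9 cortex markers and all 9 chromaffin markers were lower in replicate 2 too, with median log2 ratios of -0.12 and -0.23. Endothelial markers had a median log2 ratio of 0.03, with 5 of 8 higher in replicate 2, but 2 of 8 by library total and 3 of 8 by spike-ins. The part of these cell types in the ratios was not tested.

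**Figure D3:**
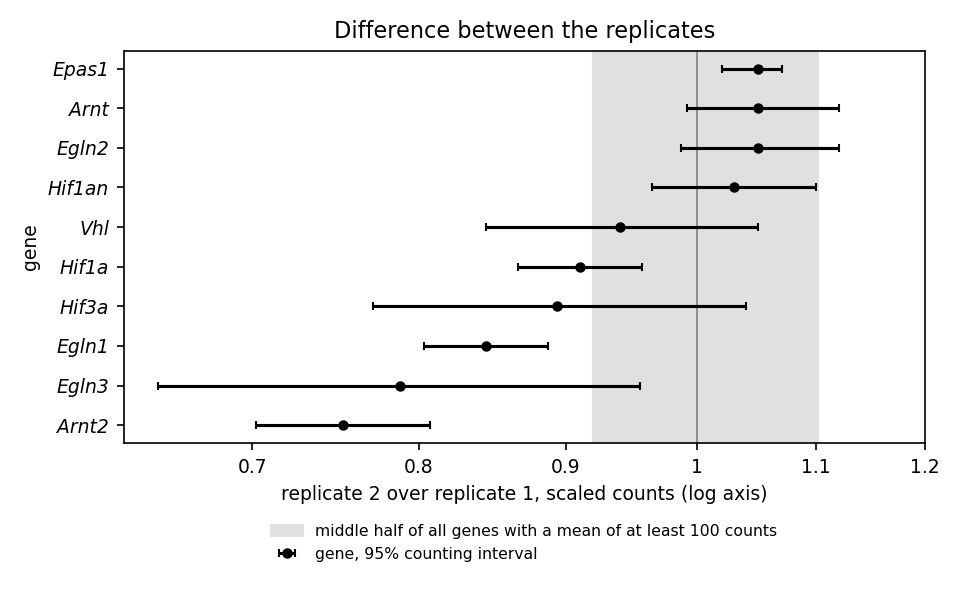
Ratio of replicate 2 over replicate 1 in scaled expected counts (log axis) for each member, with bars for the exact 95% counting interval and shading between the quartiles of 13188 genes whose mean was 100 counts or more. Arnt2 at 0.753 and Egln3 at 0.788 lie farthest to the left, and no member lies above 1.05.

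Promoter sequence was available for 9 members in 10 windows, from RefSeq on GRCm38.p6, each reaching from 250 bases before to 50 bases after an annotated start. The windows were searched for the core of the hypoxia response element, ACGTG or GCGTG on either strand, since feedback by HIF on its own regulators is known for Egln1 and Egln3. A CACGTG word, which is also a general E-box, counts on both strands. The core was found in 7 of 10 windows (70.0%), against 43.8% of 32851 windows of all genes and 61.5% of the 12570 windows of protein-coding genes at 1 TPM or more. The upstream window of Egln2, the highest of the 10, held 6 cores, a number reached by 1.19% of the latter windows, each taken singly. That of Hif1a held 3, those of Egln1 and Hif3a 2 each, and those of Arnt, Egln3 and a second Egln2 start 1 each. No core was found in the windows of Vhl, Arnt2 and Hif1an. The windows of the HIF target genes described further on held a core in 43 of 54 cases (79.6%). Median G and C content was 63.2% in the member windows and 64.5% in the target windows. It was 52.7% in all windows and 60.7% in those of protein-coding genes at 1 TPM or more. The part of G and C content in the shares with a core was not tested.

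The Egln2 and Hif1a stretches are printed because they held most cores, and those of Egln1 and Egln3 because their induction by hypoxia is known. Each runs 5′ to 3′ along the gene's own strand, and the capitals mark the cores on either strand. The Egln2 stretch is chr7:27166803-27167052 on the minus strand, and its last 4 bases begin a CACGTG that runs across the start and accounts for the remaining 2 cores. The Hif1a stretch is chr12:73907617-73907866 on the plus strand, near the start of Hif1a-201 and not that of Hif1a-202. The Egln1 and Egln3 stretches are 80 bases each, chr8:124949313-124949392 and chr12:54204045-54204124, both on the minus strand.
Egln2: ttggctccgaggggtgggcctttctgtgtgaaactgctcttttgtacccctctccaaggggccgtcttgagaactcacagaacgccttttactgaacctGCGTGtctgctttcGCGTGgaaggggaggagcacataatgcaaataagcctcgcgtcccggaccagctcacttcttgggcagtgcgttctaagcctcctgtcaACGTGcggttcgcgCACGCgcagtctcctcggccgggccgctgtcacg
Hif1a: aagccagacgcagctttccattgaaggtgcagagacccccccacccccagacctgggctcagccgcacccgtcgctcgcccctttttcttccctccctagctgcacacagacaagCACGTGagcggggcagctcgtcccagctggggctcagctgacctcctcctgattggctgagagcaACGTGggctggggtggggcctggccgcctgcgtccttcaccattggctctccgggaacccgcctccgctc
Egln1: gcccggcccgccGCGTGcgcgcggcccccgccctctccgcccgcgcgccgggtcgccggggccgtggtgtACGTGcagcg
Egln3: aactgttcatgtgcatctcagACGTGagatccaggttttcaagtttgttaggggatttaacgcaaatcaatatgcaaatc

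**Figure D4:**
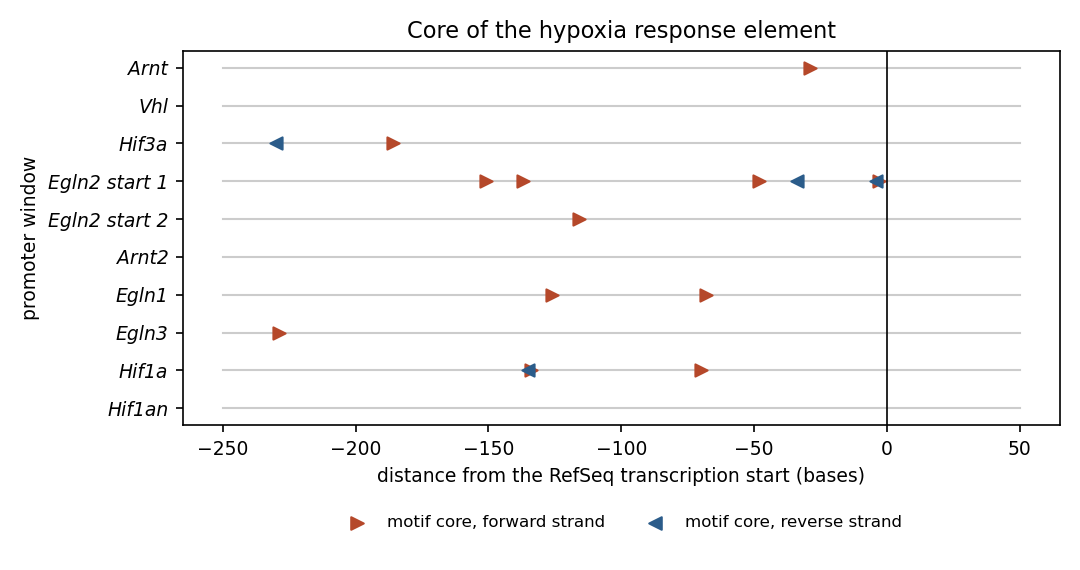
Position of each core of the hypoxia response element, in bases from the RefSeq start, for 10 windows of 9 members, with red triangles for the forward strand and blue for the reverse. Egln2 start 1 holds 6 cores, of which 2 overlap at the start, and the windows of Vhl, Arnt2 and Hif1an hold none.

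The Egln1 window was 86.0% G and C, the Egln2 window 64.3% and the Egln3 window 54.7%. The Egln1 cores lie at -126 and -68 bases from the start, and the single Egln3 core at -229. A match says only that these letters are present, and binding was not measured here.

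All 5 other subunits or modifiers of the VHL ligase were above 1 TPM, beside 56.7% of nuclear protein-coding genes. Highest of the 5 were Elob with 127 ± 1.82 TPM, Nedd8 with 97.7 ± 6.13 TPM and Eloc with 61.1 ± 2.15 TPM (SD, n = 2). Elob and Eloc form the elongin pair that joins VHL to its cullin, and Nedd8 activates the cullin. Vhl itself, at 8.54 TPM, was the lowest of the complex. None of the 5 lay past the log2 limit of 0.32, beside 18.3% of all genes. Of 8 genes known to act on HIF or EGLN stability outside VHL, the chaperones Hsp90ab1 (381 ± 16.7 TPM) and Hsp90aa1 (93.0 ± 2.08 TPM) and the scaffold Rack1 (284 ± 0.983 TPM) were highest. The ubiquitin ligase Siah2, known to act on EGLN enzymes, had 6.30 TPM in replicate 2 against 4.45 TPM in replicate 1, and Siah1a had 6.43 against 8.48 TPM. These 2 of the 8 lay past the limit, in opposite directions, beside 18.3% of all genes.

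The 7 coactivators and CITED genes, which HIF alpha subunits bind or compete with, were all above 1 TPM, beside 56.7% of nuclear protein-coding genes. All 7 were lower in replicate 2, beside 51.0% of all genes, with a median log2 ratio of -0.29. The highest were Cited2, a competitor for the coactivator site, at 22.8 ± 3.43 TPM, the histone acetyltransferase Ep300 at 19.2 ± 3.24 TPM and the mediator kinase Cdk8 at 17.9 ± 2.55 TPM (SD, n = 2). Of the 6 with a mean of 100 counts or more, 1 lay past the limit, lower in replicate 2. Of all genes, 18.3% lay past it in either direction and 5.01% in that one. The 6 other oxygen-dependent dioxygenases were also all lower in replicate 2, beside 51.0% of all genes, with a median log2 ratio of -0.17. None of the 6 lay past the limit, beside 18.3% of all genes. Highest of the 6 were the histone demethylases Kdm5a (18.8 ± 4.26 TPM), Kdm5c (18.6 ± 1.48 TPM) and Kdm6a (13.4 ± 1.70 TPM). Among 11 other factors of the bHLH-PAS family to which the HIF subunits belong, 4 reached 1 TPM in both libraries, led by Clock (12.1 ± 0.375 TPM), Arntl (10.6 ± 2.97 TPM) and the dioxin receptor Ahr (3.79 ± 0.884 TPM). Of the 4 with a mean of 100 counts or more, 2 lay past the limit, beside 18.3% of all genes. They were Arntl, lower in replicate 2 (0.705), and Ahr, higher (1.34).

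A further list held 13 genes of mitochondrial and cytosolic metabolism around 2-oxoglutarate, a substrate of the EGLN enzymes, and succinate and fumarate, which inhibit them. All 13 were above 1 TPM, beside 56.7% of nuclear protein-coding genes. The median level of the 13 was 226 TPM in replicate 2 against 217 TPM in replicate 1. The highest were the malate dehydrogenase Mdh2 (346 ± 4.86 TPM), the succinate dehydrogenase subunit Sdha (291 ± 4.38 TPM) and Idh3a, a subunit of the isocitrate dehydrogenase that makes 2-oxoglutarate (280 ± 17.5 TPM). Their median log2 ratio was 0.06, with 11 higher and 2 lower in replicate 2 and none past the limit, but 6 higher and 7 lower by library total and 7 higher and 6 lower by spike-ins. Of all genes, 51.0% were lower in replicate 2, and 18.3% lay past the limit. Of 8 genes known from oxygen sensing in the carotid body, 6 reached 1 TPM in both libraries, beside the same 56.7%. Cox8b had 937 ± 18.2 TPM, the potassium channel Kcnk3 212 ± 37.5 TPM and Pcx 124 ± 25.4 TPM. Of the 5 with a mean of 100 counts or more, 2 lay past the limit, beside 18.3% of all genes. Pcx was the 1 higher in replicate 2 (1.29), and 1 was lower. Cox8b is also known from brown fat and muscle, whose markers summed to 2175 TPM in replicate 2 against 2599 TPM in replicate 1 for brown fat and to 836 against 310 TPM for skeletal muscle, and their part in its level was not tested.

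Of 48 textbook HIF target genes, 42 were above 1 TPM in both libraries, beside 56.7% of 22015 nuclear protein-coding genes. The median level of the 48 targets was 15.4 TPM in replicate 2 and 15.6 TPM in replicate 1. Their median log2 ratio was 0.02, with 26 higher and 21 lower in replicate 2 among the 47 with a ratio. By library total 18 were higher and 29 lower, and by spike-ins 19 were higher and 28 lower. The 19 targets of glucose use were all above 1 TPM, led by the glycolytic enzymes Aldoa (687 ± 24.3 TPM), Gapdh (607 ± 16.7 TPM) and Ldha (273 ± 19.8 TPM). Their median log2 ratio was -0.01, with 9 higher and 10 lower, but 3 and 16 by library total and 4 and 15 by spike-ins. The 3 of 19 past the limit were Pfkl (0.784), Pfkp (0.784) and Pfkfb4 (0.761), all lower in replicate 2. Of all genes, 18.3% lay past the limit in either direction and 5.01% lay past it with the lower value in replicate 2. Pfkfb3, a relative of Pfkfb4, lay at 1.23 (1.18 to 1.29).

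The 29 other targets were led by the angiogenic factor Vegfa (100 ± 1.72 TPM) and the mitophagy receptors Bnip3 (84.8 ± 3.77 TPM) and Bnip3l (71.7 ± 3.86 TPM). Epo, the erythropoietin gene, had no expected count in replicate 2 and 1 in replicate 1. Of the 28 with a ratio, 17 were higher and 11 lower in replicate 2. Of the 23 with a mean of 100 counts or more, 6 lay past the limit. These 6 were all higher in replicate 2, beside 13.3% of all genes in that direction. They included the transferrin receptor Tfrc (1.57), the haem oxygenase Hmox1 (1.56), the repressor Bhlhe40 (1.52), the mTOR regulator Ddit4 (1.47) and the collagen crosslinker Lox (1.47). Over both target lists, 9 of 42 genes at that count lay past the limit, 6 higher and 3 lower, beside 13.3% higher and 5.01% lower among all genes. Several of the 6 are also expressed by fibroblasts, macrophages or erythroid cells. Markers of these cell types were higher in replicate 2 in 5 of 6, 6 of 6 and 6 of 6 cases (4, 6 and 5 by library total or by spike-ins). The sums of those markers were 1006 and 469 TPM, 56.1 and 34.6 TPM, and 2490 and 2406 TPM. Other marker lists rose as uniformly, namely liver (8 of 8 higher), skeletal muscle, granulocytes, smooth muscle, and bone and cartilage (7 of 7 each), and Schwann cells (6 of 6). Adipocyte (5 of 6 higher), endothelial (5 of 8) and brown adipocyte (3 of 7) markers were split, and all cortex and chromaffin markers were lower. The part of any cell type in these differences was not tested.

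**Figure D5:**
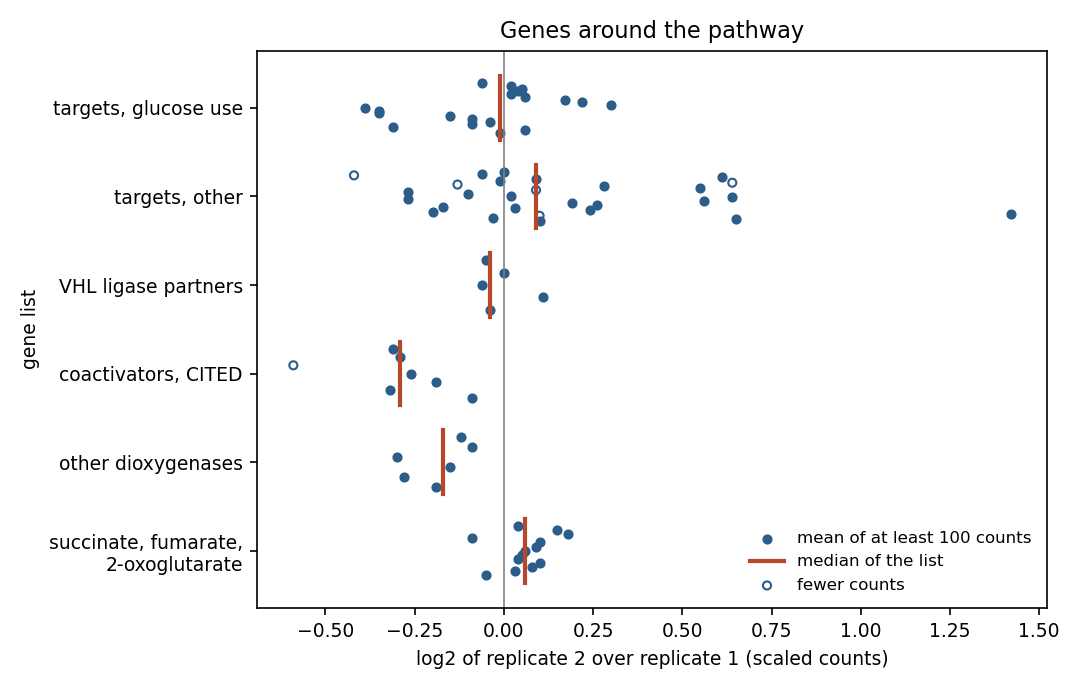
Log2 ratio of replicate 2 over replicate 1 in scaled counts for the genes of 6 lists, with filled points where the mean was 100 counts or more, open points for fewer, and a red bar at the median of each list. Coactivators and other dioxygenases lie below 0 in every case, and the glucose-use targets lie on both sides of 0.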

How the data were processed

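Total RNA of 2 adrenal gland libraries was analysed as a single group. The members and all gene lists were chosen with earlier results of these data known. Per the file headers and the accompanying notes, the authors made gene and transcript tables from alignments to the transcriptome (mm10, GENCODE M21), with RSEM column names. These deposited tables hold expected counts, not normalised, TPM over all 81881 entries, spike-ins included, and the percent of each gene's TPM held by a transcript. The deposited second transcript table, with kallisto column names, was made from the reads and an index and holds estimated counts and TPM. Which aligner and versions were used is not given in the sources used here. Per the labels, the library kit is directional, but the strand setting of the counting is not given, so antisense overlaps are uncertain. Reads of both parental strains were assigned to 1 reference, and its effect was not tested.

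Totals over all entries were 38984236 expected counts in replicate 2 and 36982665 in replicate 1, of which spike-ins took 0.879% and 0.892%. Ratios of replicate 2 over replicate 1 used counts scaled by TMM (edgeR 4.0.16 in R 4.3.3) with a prior of 0.5 for log2 values. Genes with 3 or fewer counts in both libraries got no ratio. Intervals of ratios are exact Clopper-Pearson 95% intervals. Log2 TPM ratios between genes used log2(TPM + 0.1). Ratios and counts were checked on simulated data. DESeq2 1.42.0 size factors, library totals, spike-in totals, the second table, other thresholds and each library alone were alternatives, and protein-coding transcripts alone were added after the data were seen. Promoter motifs were searched in RefSeq windows, and hydroxylation sites in translated GENCODE transcripts, since the protein table planned for them was not used here. Other tools were Python 3.11.15 with scipy 1.17.1, numpy 2.4.6, pandas 2.3.3 and, for plots, matplotlib 3.10.9.

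Named were all members, their transcripts averaging at least 10% of gene TPM in either table, and of each list the 3 highest by mean TPM, those at 0 and those past 2-fold. Values of certain genes that this rule takes are not reported here. Other genes named, among them those past a log2 ratio of 0.32, Epo, Pfkfb3, Siah1a and Siah2, were chosen after their values were seen.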

Additional observations from a re-analysis of the deposited data

How the results depend on the processing

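Of 61 recomputed values that answer a comparison, 42 stayed within a set tolerance, 17 moved past it and 2 turned round. The tolerance was the SD of the 2 libraries for levels and log2 TPM ratios. It was a factor of 1.5 for counts of members and the counting error for median log2 ratios between libraries. By construction, each library alone lies within that SD. Settings that could drop no member, such as a lower TPM threshold, also had to stay. The members' median level of 14.6 TPM was 22.0 TPM in the second table and 43.8 TPM rescaled over nuclear protein-coding genes, and the targets' 15.5 TPM was 25.3, 46.5 and, with at least 10 counts, 15.7 TPM. At a threshold of 10 TPM in both libraries, 5 members passed. The log2 ratio of Egln2 over Egln1 was 0.95 in the second table against 0.26. That of Egln1 over Egln3, 3.35, was 3.44 in the second table, 3.44 there with protein-coding transcripts alone, and 2.94 with a pseudocount of 1. The members' median log2 ratio of -0.11 was -0.19 by library total and -0.17 by spike-ins. The targets' median of 0.02 turned to -0.06 by library total and -0.03 by spike-ins, and was 0.04 in the second table and 0.08 as a mean. These 2 scalings shift every log2 ratio by construction, by -0.0776 and -0.0563. The 2 members past a log2 difference of 0.32 became 1 in the second table, 3 by library total, 0 at 1.5-fold and 0 at 2-fold.

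Each library alone gave a median of 13.6 to 15.5 TPM for the members and 15.4 to 15.6 TPM for the targets, and 10 members at 1 TPM in each. Log2 ratios ranged from 1.40 to 1.64 for Epas1 over Hif1a, 0.46 to 1.00 for Arnt over Arnt2, 0.10 to 0.41 for Egln2 over Egln1 and 3.31 to 3.39 for Egln1 over Egln3. Of 30 values of single members, 27 moved by more than the replicate SD, including all 20 TPM values. Rescaling over nuclear protein-coding genes raises the TPM of every gene by construction. TPM in the second table was also higher in general, with a median ratio of 1.55 over 12491 protein-coding genes. Hif3a, with 344 and 385 counts, and Egln3, with 192 and 244, set the limit of precision. No paired analysis was possible because there is a single group.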
